A study of Mus musculus with 15 samples.

Results

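The subject is the change of the normal mouse retina from postnatal day 9 (P9) to day 13 (P13), a step that no array measured directly. It was obtained by subtraction. On 3 arrays the retina of mice with oxygen-induced retinopathy (OIR) at P13 was set against normal retina at P9 (P13-O/P9-N), and on 3 other arrays it was set against normal retina at P13 (P13-O/P13-N). The mean log2 ratio of the first set minus that of the second is taken as normal P13 over normal P9 (P13-N/P9-N). The OIR retina drops out only as far as the OIR pools of both sets were alike. Whether the same OIR pools were used in both sets is not stated, and any difference between them stays in the values. Of 29922 probes on the array, 14398 had at least 2 values in each set and were tested, and 11191 of these carry 1 gene symbol. The series holds 15 arrays in 5 comparisons.

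All mice were wild-type C57BL/6J. Normal mice (N) were raised in room air, and the retinas compared here were taken at P9, P13 or P30. In the OIR model (O), a model of blood vessel loss and regrowth, pups were kept in 75% oxygen from P7 to P12 and returned to room air. The OIR retinas compared here were taken at P13. Arrays of OIR against normal retinas at P8 and at P12 (P8-O/P8-N and P12-O/P12-N) entered only the shared estimate of spread. Their OIR retinas were taken during oxygen or at its end. Each array set 1 pool of neural retinas against another, and a pool held 10 retinas of 5 mice from 1 litter. The arrays that set P9-N against P30-N (3 arrays, read here as P30 over P9) extend the normal course: P30-N/P9-N minus P13-N/P9-N gives the later step, P30-N/P13-N. Since the 2 steps use the same arrays with opposite sign, an error in one pushes the other the opposite way, and no overlap between them is counted.

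Between these ages the mouse retina passes from late neurogenesis to a working sensory tissue. Rods are born around birth, then build their outer segments, the stacked membranes that hold the proteins of the light response, and in the second postnatal week the ribbon synapses form, the eyes open and light responses become measurable. Mueller glia, the last cell type to form, take over glutamate clearance, and the deep vessel layers grow in. Whole retinas were measured, so a higher share of a cell type and more RNA per cell of that type cannot be told apart in any value below.

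The direction of the P13-O/P9-N ratios was taken from the channel order given by the labels. In that direction the mean ratios correlated across probes at r = 0.59 with P30-N/P9-N and at 0.20 with P13-O/P13-N, and the median of hypoxia-inducible genes was 0.89, beside 0.84 in P13-O/P13-N; with the ratios turned, all 3 of the values for P13-O/P9-N would have the opposite sign. The number of RNA samples that the study gives leaves no pools of their own for these arrays if every other comparison had its own, so the P13-O and P9-N pools may have been used more than once. In that case the arrays are not independent of each other and p describes the spread between arrays only. Replicate arrays correlated at 0.42 to 0.61 in P13-O/P9-N and at 0.04 to 0.46 in P13-O/P13-N, beside 0.83 to 0.90 for P9-N/P30-N. Lens genes, of a tissue outside the neural retina, differed between replicate arrays. Replicate 1 of P13-O/P9-N had a median log2 ratio of 2.53 over the measured lens genes, beside -0.15 and -0.24 on replicates 2 and 3 and -0.48, -0.53 and -0.08 in P13-O/P13-N, so the lens list has a median of 1.10 in P13-N/P9-N. The P30-N/P9-N arrays had 0.46, 0.84 and 0.77, and single lens genes differed more: *Cryba2* read 0.91, 3.03 and 3.35 there, and -0.66, -2.5 and 0.26 in P13-O/P13-N. The part of lens tissue in the other values was not tested. The Y-linked gene *Eif2s3y* read -1.69, 0.09 and 1.20 on the P13-O/P9-N arrays. Counts of list genes are given without replicate 1 of P13-O/P9-N for most lists where they change. Counts without another array are given for some lists only, and those of other lists moved as well. Of 31 defining markers of retinal cell types, 22 were tested; those that were not include *Opn1sw*, *Grm6*, *Trpm1*, *Gad1*, *Aqp4*, *Rgs5* and *Aif1*.

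A probe was called where limma's adjusted p was under 0.05 and the difference at least 1.5-fold. In P13-N/P9-N, 244 probes were higher and 140 lower, or 1.69% and 0.972% of those tested. Without replicate 1 of P13-O/P9-N the counts were 184 and 97. By genes, 199 of 9686 were higher (2.05%) and 104 lower (1.07%). The median size was 0.82 on the log2 scale among the higher probes and -0.77 among the lower ones. At least a 2-fold difference was met by 75 of the higher and 30 of the lower probes, and a 4-fold one by 8 and 1. The called difference sat mostly in the P13-O/P9-N ratios. Among the higher probes their median was 0.67, beside -0.16 in P13-O/P13-N, and for 224 of 244 the P13-O/P9-N mean was the larger part. Among the lower probes the medians were -0.65 and 0.17, and for 114 of 140 it was the larger part. The 2 sets of arrays did not overlap for 244 of the 244 higher and 138 of the 140 lower probes, beside 26% of the probes with 3 values in each set. These probes were called on the same values, so the separation follows largely from the call and is no support for it. Some called probes also have only 2 values in a set.

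**Figure D1:**
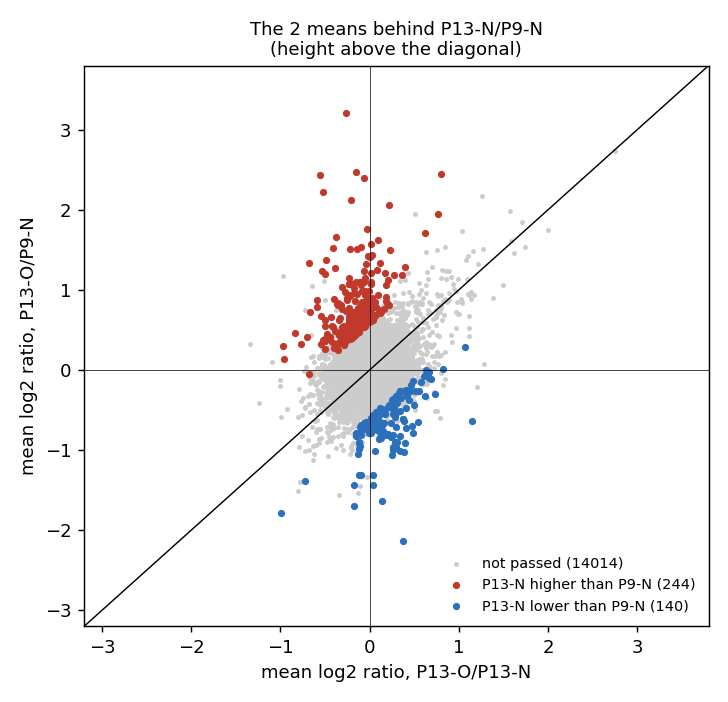
Each point is 1 of the 14398 tested probes, with its mean log2 ratio in P13-O/P13-N on the x axis and in P13-O/P9-N on the y axis (3 arrays each); height above the diagonal is P13-N/P9-N. The 244 higher probes (red) and the 140 lower probes (blue) lie mainly above and below the horizontal line at 0, spread on both sides of the vertical one.

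Rod genes had the most called members of any list. Rods turn the capture of a photon into a fall of cyclic GMP, through the G protein transducin and a phosphodiesterase, and the fall closes cation channels in the outer segment. Of 18 measured genes of this cascade, 11 were higher at P13 and 0 lower, beside 2.05% and 1.07% of all genes, with a median of 0.75 beside -0.01 over all probes. Without replicate 1 of P13-O/P9-N, 8 were higher. The cascade's members are described in the order in which they act, and *Sag*, *Cngb1*, *Aipl1*, *Pde6g* and *Gnb5* were added to those the rule named after their values were seen.

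*Gnat1*, the alpha subunit of rod transducin, read 2.63, 2.53 and 2.27 on the 3 P13-O/P9-N arrays and 0.01, -0.32 and -0.15 on the 3 P13-O/P13-N arrays. Every ratio against P9 was thus more than 2 log2 units above every ratio against P13. The difference was 2.63 (95% interval 2.19 to 3.07, adjusted p = 1.7e-05), or 6.19-fold. *Pde6a*, the catalytic alpha subunit of the rod phosphodiesterase, read 1.86, 1.82 and 1.19 against 0.09, 0.25 and -0.06, a difference of 1.53 (adjusted p = 0.011). Its inhibitory partner *Pde6g* differed by 0.61 (adjusted p = 0.015). *Cnga1* and *Cngb1*, the 2 subunits of the rod channel that cyclic GMP opens, differed by 0.87 and 0.78, although a second probe for *Cnga1* read 0.83 with a wide interval (0.09 to 1.57) and did not pass.

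*Slc24a1*, the rod exchanger that carries calcium out of the outer segment, read 2.33, 2.23 and 1.80 on the P13-O/P9-N arrays and -0.24, -0.14 and -0.24 on the others. With the narrow spread of both sets its difference of 2.32 (1.98 to 2.67) had an adjusted p of 1.5e-05. *Guca1b*, which senses that fall of calcium and restarts the guanylate cyclase, had values of 2.09, 1.76 and 1.44 against -0.08, 0.64 and -0.63. The groups did not overlap and the difference was 1.79 (adjusted p = 0.0026). Among genes that act on how the response ends, rod arrestin *Sag* differed by 0.84 and recoverin *Rcvrn* by 1.09. *Gnb5*, partner of the RGS protein that turns transducin off, differed by 0.59, just inside the 1.5-fold limit. *Aipl1*, a chaperone of the phosphodiesterase, differed by 0.91 on one probe, while its other probe read 0.61 and did not pass (adjusted p = 0.061).

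Members that did not pass were *Rgs9bp*, *Grk1*, *Pde6b*, *Guca1a*, *Gnb1*, *Gngt1* and *Pdc*, at 0.73 to -0.01. *Guca1a*, the paralogue of *Guca1b*, read 0.20, 0.18 and 0.15 on the P13-O/P9-N arrays and -0.21, -0.33 and -0.04 on the P13-O/P13-N arrays, a difference of 0.37 (adjusted p = 0.17). Its later step was 1.42 (1.06 to 1.77, adjusted p = 0.0011).

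Promoter sequences were looked up for the rod genes because CRX, the homeodomain factor that drives photoreceptor genes, binds a core of the letters TAATCC. Of the 11 rod genes that were higher, 6 had a promoter in the RefSeq table (build GRCm38.p6, 250 bases before to 50 after the start), and 5 of these 6 held TAATCC on either strand, beside 8.14% of the 27025 genes of the table. Over all 18 measured rod genes it was 7 of 12 with a promoter. The 5 with the core are *Aipl1* (chr11:72037460-72037759, minus strand), *Cnga1* (chr5:72642703-72643002, minus), *Cngb1* (chr8:95306536-95306835, minus), *Gnb5* (chr9:75306038-75306337, plus) and *Sag* (chr1:87803430-87803729, plus), and the one without it is *Slc24a1* (chr9:64951571-64951870, minus), the gene with the largest change of the 6. They are shown 5′ to 3′ on the gene's strand so that the number and place of the core can be compared, with the core or its reverse complement in capitals:
Aipl1: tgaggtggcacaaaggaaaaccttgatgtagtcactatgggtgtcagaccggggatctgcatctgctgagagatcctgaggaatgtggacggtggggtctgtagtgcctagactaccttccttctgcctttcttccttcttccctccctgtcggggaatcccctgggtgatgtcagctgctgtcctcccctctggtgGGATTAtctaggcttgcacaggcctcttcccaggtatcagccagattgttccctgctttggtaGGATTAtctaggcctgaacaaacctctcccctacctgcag
Cnga1: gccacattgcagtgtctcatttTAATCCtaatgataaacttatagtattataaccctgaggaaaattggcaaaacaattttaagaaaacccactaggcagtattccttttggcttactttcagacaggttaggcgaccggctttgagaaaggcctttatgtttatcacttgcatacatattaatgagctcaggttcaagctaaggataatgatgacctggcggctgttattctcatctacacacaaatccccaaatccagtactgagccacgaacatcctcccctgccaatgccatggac
Cngb1: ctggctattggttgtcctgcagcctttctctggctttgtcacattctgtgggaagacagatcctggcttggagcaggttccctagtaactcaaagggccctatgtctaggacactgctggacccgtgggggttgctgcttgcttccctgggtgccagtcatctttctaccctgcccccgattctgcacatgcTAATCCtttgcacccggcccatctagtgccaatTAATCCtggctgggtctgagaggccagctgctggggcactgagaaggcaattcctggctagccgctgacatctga
Gnb5: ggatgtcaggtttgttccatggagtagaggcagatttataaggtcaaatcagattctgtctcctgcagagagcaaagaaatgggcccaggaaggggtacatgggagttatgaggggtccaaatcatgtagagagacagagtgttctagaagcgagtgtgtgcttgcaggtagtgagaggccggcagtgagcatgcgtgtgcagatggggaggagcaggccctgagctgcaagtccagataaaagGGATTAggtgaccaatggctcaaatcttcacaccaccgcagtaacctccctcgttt
Sag: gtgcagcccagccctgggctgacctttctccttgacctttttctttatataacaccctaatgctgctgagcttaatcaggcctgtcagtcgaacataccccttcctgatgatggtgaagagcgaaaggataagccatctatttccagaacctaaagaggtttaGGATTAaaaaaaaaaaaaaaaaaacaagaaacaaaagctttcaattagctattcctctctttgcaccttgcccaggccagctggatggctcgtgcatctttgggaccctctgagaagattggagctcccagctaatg
Slc24a1: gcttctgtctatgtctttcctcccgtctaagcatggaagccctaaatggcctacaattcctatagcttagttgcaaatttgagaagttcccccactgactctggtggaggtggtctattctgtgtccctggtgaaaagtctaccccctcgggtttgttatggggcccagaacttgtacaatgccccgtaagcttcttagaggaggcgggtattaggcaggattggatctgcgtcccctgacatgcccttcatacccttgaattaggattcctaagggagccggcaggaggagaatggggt
*Cngb1* carries the core at 58 and at 25 bases before the start, in the gene's own direction, and *Aipl1* carries its reverse complement at 53 bases before and 10 bases after. The matches of *Gnb5* and *Sag* lie 6 and 87 bases before the start on the opposite strand, and that of *Cnga1* lies 228 bases before it. A match to 6 letters is a description of the sequence and not a binding site. Of the 2 higher outer segment genes with a promoter, *Abca4* held the core; over the measured outer segment list it was 5 of 15. The letters TGCTGA, part of the site of MAF-type factors such as NRL, were in 4 of the 12 rod promoters (33.3%), beside 21.7% of all genes. Of the genes of the 15 highest and the 15 lowest probes, 9 and 9 had a promoter, and 2 (*Gabrr2* and *Lrtm1*) and 0 of them held TAATCC. No cell division promoter of 14 held TAATCC, and 5 of the 14 held TTTGAA, the element of mitotic genes called CHR, beside 20.2% of all genes.

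Cone genes were fewer and mixed. *Opn1mw*, the green cone opsin, read 2.61, 2.32 and 1.74 on the P13-O/P9-N arrays and -0.61, -0.31 and -0.63 on the P13-O/P13-N arrays, so that both sets had 1 sign throughout. It was 6.70-fold higher at P13 (2.74, adjusted p = 3.8e-05) and was the only one of 9 measured cone genes called. The cone arrestin *Arr3* had 2 probes at 0.68 and 0.32 (adjusted p = 0.059 and 0.51), and both had a called later step, of 1.55 and 1.56. *Pde6h*, *Gnat2* and *Grk1* lay at 0.90, 0.53 and 0.56 without being called, *Pde6c* and *Cnga3* at 0.12 and 0.00. The transducin subunits *Gnb3* (-0.50, adjusted p = 0.012) and *Gngt2* (-0.48, adjusted p = 0.03) lay below 0, under the 1.5-fold limit.

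**Figure D2:**
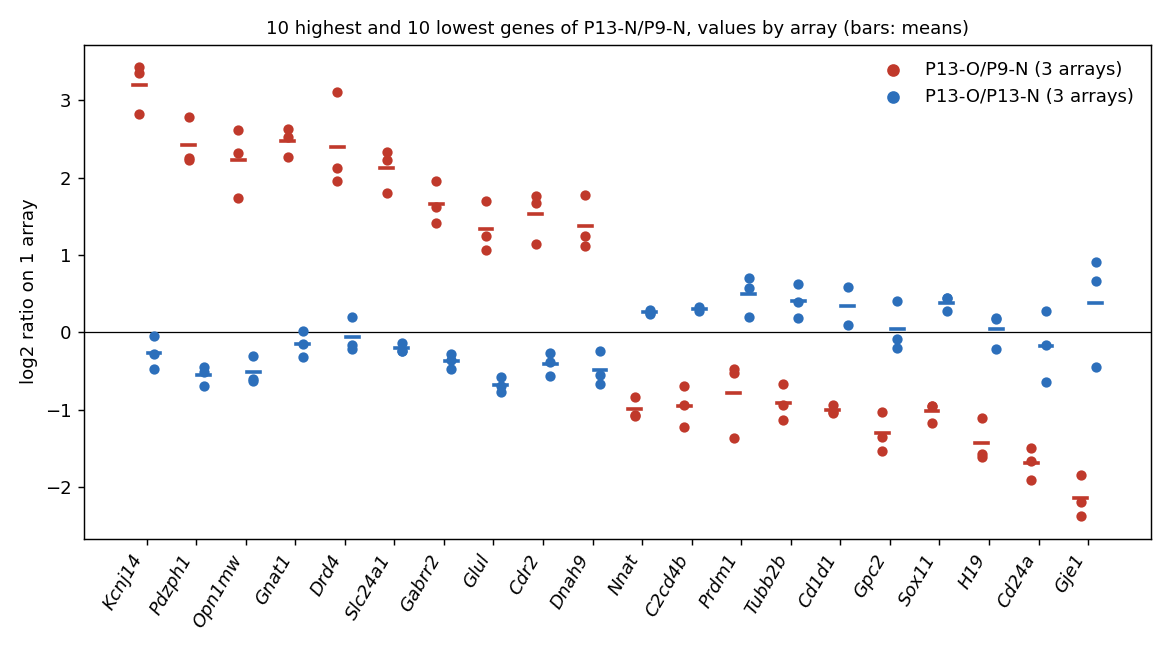
Log2 ratios on single arrays (y axis) for the 10 genes highest and the 10 lowest in P13-N/P9-N by the naming rule, with the 3 P13-O/P9-N arrays in red, the P13-O/P13-N arrays in blue (2 with a value for *Cd1d1* and *C2cd4b*) and bars at the means. The red and the blue points do not overlap because the naming rule asked for this; among the genes drawn *Kcnj14* has the largest difference of means, 3.47.

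The outer segment list, membrane and disc proteins rather than the cascade, had 4 of 18 genes higher and 0 lower, with a median of 0.26, and 3 higher without replicate 1 of P13-O/P9-N. *Reep6*, a rod endoplasmic reticulum protein, read 0.99, 0.78 and 0.80 against -0.20, 0.04 and -0.09 (0.94, adjusted p = 2e-04). *Prph2*, the disc rim protein, had 0.66, 0.60 and 0.47 against -0.04, -0.17 and -0.24 (0.72, adjusted p = 0.0017). *Abca4*, the retinoid flippase of the discs, passed on both of its probes at 0.85 and 0.67, and *Rp1l1*, an axonemal protein, passed at 0.65 (adjusted p = 0.037). *Reep6*, *Prph2* and 1 probe of *Abca4* were also called in P30-N/P13-N, at 0.76, 0.66 and 0.74, so their rise was spread over both steps. *Rdh12*, the photoreceptor retinol dehydrogenase, differed by 0.71 (adjusted p = 0.0078), with 0.08 in the later step.

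Transcription factors of photoreceptors split. Of 14 measured, 1 was higher and 2 lower. *Esrrb*, a nuclear receptor of rods, read 1.58, 1.66 and 1.49 on the P13-O/P9-N arrays and stayed between -0.06 and 0.05 on the others. It was 2.96-fold higher at P13 (1.56, interval 1.32 to 1.81, adjusted p = 1.5e-05) and higher again at P30 (0.81, adjusted p = 0.0097). *Otx2*, which sets photoreceptor and bipolar fate, fell: -0.77, -0.56 and -0.58 against 0.39, 0.40 and 0.37, a difference of -1.03 (adjusted p = 0.00013). *Prdm1*, also called Blimp1, a factor of young photoreceptors, read -1.37, -0.53 and -0.47 against 0.20, 0.57 and 0.70, a difference of -1.28 (adjusted p = 0.0041). *Crx* at 0.05 (-0.17 to 0.27) and *Nrl* at 0.23 (0.01 to 0.45) did not pass, while *Mef2c* read 0.74, -0.17 and 0.24 against -0.45, -0.25 and -0.89 (0.80, adjusted p = 0.14) and had the largest later step among the genes named, 3.15 (2.42 to 3.88).

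**Figure D3:**
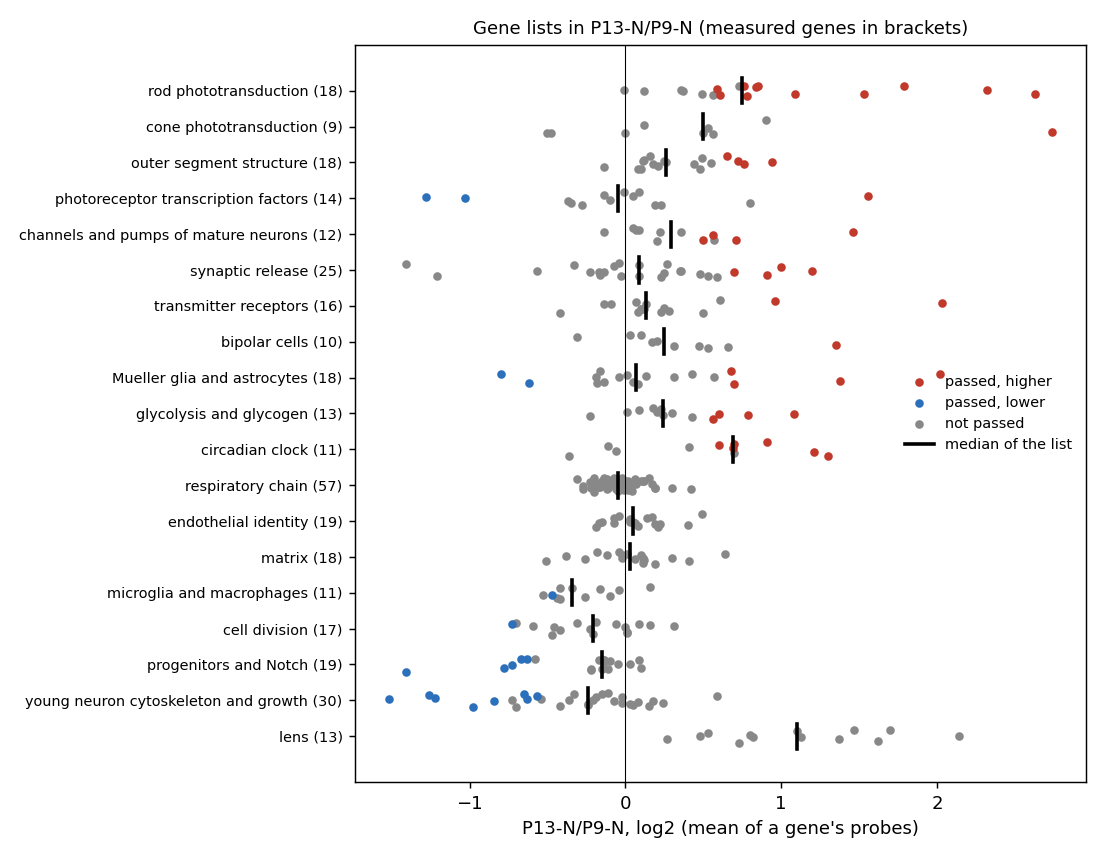
P13-N/P9-N on the log2 scale (x axis, mean of a gene's probes) for the measured genes of 19 lists, 1 point per gene, with the list's median as a bar; red and blue points passed the test as higher and lower, grey points did not. Red points crowd in rod phototransduction (11 of 18) and the circadian clock (6 of 11), blue ones in young neuron cytoskeleton (8 of 30) and progenitors (5 of 19); the lens genes are displaced to a median of 1.10 with 0 called.

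Some ion channel and synaptic genes of mature neurons were called, all of them higher. *Kcnj14*, an inward rectifier potassium channel, had the largest difference of all named probes: 3.36, 3.43 and 2.82 against -0.28, -0.05 and -0.48, or 11.1-fold (3.47, adjusted p = 3.1e-05). Its 2 other probes read 0.51 and 0.39 and did not pass, so the size rests on 1 probe. *Kcnv2*, a silent subunit of photoreceptor potassium channels, differed by 0.71, *Atp1b1*, a sodium pump subunit, by 0.84 on 1 of 2 probes, and *Cacna1f*, the calcium channel of the photoreceptor terminal, by 0.61 on 1 of 2 probes. In all 4 of 12 measured channel and pump genes were higher and 0 lower, beside 2.05% and 1.07% of all genes. Without replicate 1 of P13-O/P9-N, 3 were higher.

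The transmitter release list, beside 2.05% of all genes higher and 1.07% lower, had 0 of 25 measured genes lower and 4 higher. They were *Cplx4*, the complexin of ribbon synapses (1.46, 1.17 and 1.02 against 0.13, 0.10 and -0.18; 1.20, adjusted p = 0.00049), *Cabp4*, which tunes the calcium channel of the photoreceptor terminal (1.00), *Slc17a7*, the vesicular glutamate transporter of photoreceptors and bipolar cells (0.91), and *Cplx1* (0.70). The list's median of 0.09 and members such as *Snap25* at 0.09 and *Ctbp2* at -0.07 lay close to the median of all probes. In that list 14 genes were above 0 and 11 below, among the latter *Cplx2* at -1.21 and *Unc13a* at -0.57, both not called. *Syt5* cannot be read, as its 3 P13-O/P13-N values were -2.21, 3.02 and 2.80.

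On the receiving side, *Gabrr2*, a subunit of GABA receptors known from bipolar cells, read 1.95, 1.62 and 1.41 on the P13-O/P9-N arrays and -0.28, -0.36 and -0.47 on the P13-O/P13-N arrays. It was 4.09-fold higher at P13 (2.03, adjusted p = 1.5e-05). *Slc12a5*, the chloride exporter that makes GABA inhibitory in mature neurons, differed by 0.96 (adjusted p = 0.0041), while its counterpart *Slc12a2*, which imports chloride, read 0.25 and did not pass. The other 14 of 16 measured receptor genes did not pass. *Gng13*, a G protein gamma subunit of ON bipolar cells, was the 1 of 10 bipolar genes called (1.35, adjusted p = 0.00093). *Thy1*, at 0.60, was the 1 of 11 measured ganglion cell genes called. That list had a median of 0.16, with 8 genes above 0 and 3 below, the lowest *Pou4f1* at -0.69. Without replicate 1 of P13-O/P9-N *Thy1* was at 0.52, under the fold limit. It was not called without replicate 1 of P13-O/P13-N either. Amacrine and horizontal cell genes had 0 of 13 called, with 0.56 for *Slc32a1* and -0.37 for *Tfap2b* at the ends. Beside 2.05% of all genes higher and 1.07% lower, 0 of 13 is near the background.

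*Drd4*, the dopamine receptor of photoreceptors, was measured by 2 probes that both passed. One read 3.11, 1.96 and 2.13 against -0.17, 0.20 and -0.22 (2.46) and the other 2.27, 2.02 and 1.90 against 0.35, 0.45 and -0.15 (1.85, adjusted p = 2.6e-05). The later step of both was near 0, at -0.23 (-0.89 to 0.43) and -0.09 (-0.50 to 0.32).

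Mueller glia gave 4 higher and 2 lower genes of 18 that were measured in the glial list. *Glul*, the glutamine synthetase that disposes of glutamate, read 1.25, 1.70 and 1.07 on the P13-O/P9-N arrays and -0.77, -0.69 and -0.58 on the P13-O/P13-N arrays. Both sets contributed to its difference of 2.02 (1.62 to 2.42, adjusted p = 4.5e-05), since the OIR retina lay below the normal one at P13 on each array. *Clu*, clusterin, differed by 1.38 and *Dkk3* by 0.70. *Car14*, a membrane carbonic anhydrase, passed at 0.68 with 1 array high (0.13, 0.92 and 0.24). *Cyp26a1*, which degrades retinoic acid, read -0.22, 0.04 and -0.16 against 0.61, 0.88 and 0.58, so its difference of -0.80 lay almost wholly in the P13-O/P13-N arrays. *Pdgfra*, a receptor of astrocytes and their precursors, differed by -0.62. *Vim*, *Sox9*, *Slc1a3* and *Rlbp1* lay between -0.18 and 0.08 and did not pass. Neither *Pdgfra* nor *Cyp26a1* was called without replicate 1 of P13-O/P9-N, where 5 glial genes were higher and 0 lower. Without replicate 2 of P13-O/P9-N 2 were higher and 2 lower, and without replicate 2 of P13-O/P13-N 4 were higher and 0 lower; 1 was lower without replicate 3 of P13-O/P9-N. *Glul* and *Clu* were called in each of these cases. Among other named genes, the taurine transporter *Slc6a6* (1.73), the axonemal dynein *Dnah9* (1.86), *Cdr2* (1.93), *Scara3* (1.69), *Lrtm1* (1.67) and *Pdzph1* (2.98) completed the 15 highest probes.

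Of all the lists, those of young neurons and of their precursors held the most lower genes, 8 and 5, while 80 of the 104 lower genes were in no list. Cells that leave division express *Sox11*, doublecortin and growth tubulins while axons grow, and lose them as synapses mature. Of 30 measured genes of the young neuron list, 8 were lower and 0 higher, with a median of -0.24. With 1 array left out, 6 to 7 were lower, and 7 without replicate 1 of P13-O/P9-N. *Cd24a*, a surface glycoprotein of immature neurons, read -1.91, -1.50 and -1.67 against -0.64, -0.17 and 0.28, a difference of -1.52 (adjusted p = 0.0026). *Tubb2b*, a tubulin of migrating neurons, passed on 2 probes at -1.13 and -1.31. *Nnat*, neuronatin, read -0.84, -1.08 and -1.07 against 0.24, 0.25 and 0.29 (-1.26, adjusted p = 0.0011). *Marcksl1* and *Marcks*, which couple the membrane to actin, had differences of -0.78 and -1.19 (2 probes) and -0.84, and *Tuba1a* one of -0.65. *Stmn4* and *Tubb5* made up the 8. Doublecortin, *Dcx*, missed the threshold on both of its probes at -0.72 and -0.67 (adjusted p = 0.053 and 0.075), and its later steps of -1.06 and -1.18 were called.

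Among 19 measured progenitor and Notch genes, 5 were lower and 0 higher, 3 without replicate 1 of P13-O/P9-N or of P13-O/P13-N, and 2 without replicate 2 of P13-O/P9-N. *Sox11* was the lowest: -0.95, -1.17 and -0.95 against 0.44, 0.44 and 0.27, or 2.65-fold lower (-1.41, adjusted p = 0.0077). *Ccnd1*, the G1 cyclin of retinal progenitors, passed on 3 of 4 probes at -0.74, -0.94 and -0.98. *Neurog2* read 0.30, 0.33 and 0.24 on the P13-O/P9-N arrays and 1.28, 1.19 and 0.74 on the P13-O/P13-N arrays, so that it was above 0 in both sets and its difference was -0.78 (adjusted p = 0.0063). *Hes5* and *Dll3* of the Notch pathway differed by -0.67 and -0.63. Of 17 measured cell division genes 1 was lower (*Prc1*, a spindle protein, -0.73, adjusted p = 0.027), with a list median of -0.21. The list's medians by array were 0.11, -0.15 and 0.12 in P13-O/P9-N against 0.29, 0.26 and 0.16 in P13-O/P13-N. *Prc1* lost the call in 4 of the 6 cases with 1 array left out. The promoter of *Prc1* holds TTTGAA just before its start.

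Of the other genes among the 15 lowest, *Gje1*, a gap junction protein, had the largest fall, with -1.85, -2.38 and -2.20 against -0.45, 0.66 and 0.91 (-2.52, adjusted p = 0.0011). *H19*, an imprinted noncoding RNA of growing tissue, read -1.11, -1.62 and -1.58 against -0.22, 0.18 and 0.17 (-1.48, adjusted p = 0.00041), and was the 1 of 9 imprinted growth genes that passed. *Gpc2*, a glypican of growing axons, *Mycl*, a MYC family factor, *Enc1*, *Npy*, *Sat1*, *Cd1d1* and *C2cd4b* lay between -1.35 and -1.18. *Crabp1*, a retinoic acid binding protein, differed by -0.63 (adjusted p = 0.004). Of 15 guidance genes, *Sema3f* was higher (0.80) and *Sema5b* lower (-0.60 on 1 of 2 probes), both near the threshold; *Sema3f* was not called without replicate 1 of P13-O/P9-N or any 1 of 4 other arrays.

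After the rod list, the circadian clock list had the most genes called higher. The circadian clock is a feedback loop in which PER and CRY proteins repress their own transcription, and DBP, TEF and HLF are output factors of the same phase family. Of 11 measured genes, 6 were higher and 0 lower, beside 2.05% and 1.07% of all genes, with a median of 0.69. With 1 array left out, 4 to 6 were higher. *Dbp* read 1.07, 1.20 and 1.01 on the P13-O/P9-N arrays and -0.03, -0.08 and -0.23 on the P13-O/P13-N arrays. Its difference of 1.21 had the narrow interval of 1.01 to 1.41 (adjusted p = 1.7e-05). *Per2* had 1.06, 1.18 and 0.97 against -0.13, -0.11 and -0.45 (1.30, adjusted p = 0.0048). *Per3* differed by 1.15 on one probe and by 0.22 on another that had fewer values, *Hlf* by 0.91, *Tef* by 0.70 and *Cry2* by 0.60. *Per1* at 0.70 and *Nr1d1* at 0.41 did not pass, and *Clock* at -0.06, *Arntl* (Bmal1) at -0.11 and *Nr1d2* at -0.36 were not above 0. In the later step 0 of the 11 were called, with a median of 0.20, beside 0.88% of all genes higher and 1.38% lower, so that 0 of 11 is near the background. The hour at which retinas were taken is not given in the sources used here, and its part in these values was not tested.

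Immediate early genes, which neurons switch on within minutes of activity or handling, had 2 of 8 higher and 1 lower. *Fos* read 2.32, 2.91 and 2.13 against 1.09, 1.28 and 0.03, a difference of 1.65 (0.93 to 2.37, adjusted p = 0.012). *Egr1* read 1.18, 2.23 and 1.18 against -0.14, -0.21 and 0.05, a difference of 1.63 (adjusted p = 0.021), with a later step of -1.37 (-2.33 to -0.42) that did not pass. *Jun* fell by 0.77. Without replicate 2 of P13-O/P9-N 0 of these genes were higher, and 1 was without replicate 1 or replicate 2 of P13-O/P13-N.

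Glucose metabolism had 4 of 13 genes higher and 0 lower, and 2 without replicate 1 of P13-O/P9-N or of P13-O/P13-N. *Hk2*, the hexokinase of photoreceptors, read 1.94, 1.67 and 1.5 against 0.75, 0.71 and 0.40, so that both sets were above 0 and the difference was 1.08 (0.69 to 1.48, adjusted p = 0.0041). Its later step was 2.26 (1.78 to 2.75, adjusted p = 0.00035). Neuron-specific enolase *Eno2* differed by 0.79, muscle glycogen phosphorylase *Pygm* by 0.60 and *Hk1* by 0.60 on 1 of 2 probes. The respiratory chain had 0 of 57 genes called, within -0.31 to 0.42. Beside 2.05% of all genes higher and 1.07% lower, 0 of 57 is near the background.

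Of 20 measured hypoxia-inducible genes, 19 had mean ratios above 0 in both sets of arrays and 13 were at least 1.5-fold up in both; *Ndrg1* was below 0 in P13-O/P9-N on both of its probes (-0.23 and -0.33). *Vegfa* read 1.31, 1.30 and 1.38 in P13-O/P9-N and 1.02, 1.32 and 1.31 in P13-O/P13-N, high in both, and its P13-N/P9-N value was 0.11 (-0.26 to 0.48, adjusted p = 0.84). *Hif1a* was at 0.18 (adjusted p = 0.71). In P13-N/P9-N 3 of the 20 were higher and 0 lower (2 higher without replicate 1 of P13-O/P9-N), with a median of 0.12: *Bhlhe40*, a repressor that also belongs to the clock (1.19, adjusted p = 0.0018), *Hk2* and *P4ha1*, a collagen hydroxylase (0.64, adjusted p = 0.039).

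Of 19 endothelial genes 0 were called in either direction, near the background of 2.05% and 1.07%, within -0.19 to 0.49 and with a median of 0.05, beside a median of -0.32 in the later step, where *Prnd*, the doppel gene of young endothelium, was at -2.27 (adjusted p = 0.0015) after 0.14 by P13. *Slc38a5*, an amino acid carrier of retinal vessels, was low on every array, at -1.44, -1.89 and -2.02 against -0.60, -1.27 and -1.11, and its difference was -0.79 (adjusted p = 0.041), not called in 3 of the 6 cases with 1 array left out. *Vtn*, vitronectin, listed with pericyte genes, read 1.94, 1.16 and 1.42 against -0.21, 0.23 and -0.44 (1.64, adjusted p = 0.00062), while *Pdgfrb*, which defines pericytes, was at 0.75 (adjusted p = 0.099). *Vtn* was the 1 of 11 measured pericyte and smooth muscle genes called. The list's median was 0.11, with 9 genes above 0 and 2 below, the lowest *Acta2* at -0.43. Of 18 matrix genes 0 were called, which is again near the background. The microglial list lay at a median of -0.34. Its medians by array were 0.05, 0.02 and -0.05 in P13-O/P9-N against 0.25, 0.35 and 0.29 in P13-O/P13-N, so the difference lay mainly in the latter. Of its 11 measured genes 1 was lower (*Cd68*, -0.64 on 1 of 2 probes, not called in 5 of the 6 cases with 1 array left out).

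To date the changes, P13-N/P9-N was set against P30-N/P13-N in the same fit. In the later step 112 of 13130 probes were higher (0.853%) and 153 lower (1.17%). The test of the difference between the 2 steps called 0 probes at an adjusted p under 0.05 (lowest 0.16; 901 were below 0.05 unadjusted), with a median standard error of 0.30 against 0.15 for P13-N/P9-N, so that no gene can be placed before or after P13 by that test. With array weights and robust eBayes it called 99 and 56. Side by side, the steps of the named genes had 3 forms. *Gnat1* (2.63, then 0.62 with an interval of 0.09 to 1.16), *Opn1mw* (2.74, then 0.43), *Glul* (2.02, then 0.28), *Otx2* (-1.03, then -0.15), *Sox11* (-1.41, then -0.08), *Kcnv2* (0.71, then 0.02) and *Drd4* were called by P13 and not after. *Slc24a1* (2.32, then 0.94), *Esrrb*, *Nnat*, *H19*, *Mycl* (-1.25, then -1.14), *Vtn* (1.64, then 1.17) and *Hk2* were called in both steps. *Mef2c*, *Arr3*, *Guca1a*, *Isl1* (-0.31, then -1.09) and *Cdkn1c* (-0.06, then -1.07) were called in P30-N/P13-N and not in P13-N/P9-N. The first step spans 4 days and the later one 17 days.

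**Figure D4:**
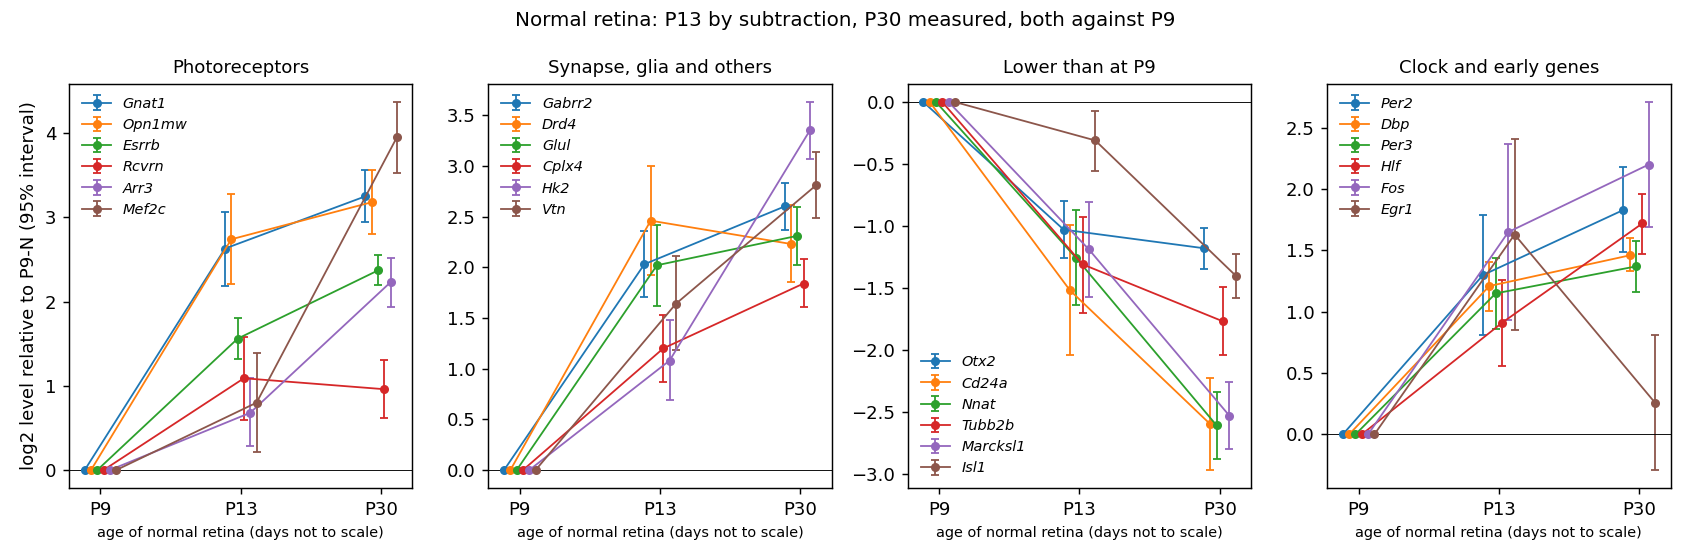
Log2 level of normal retina relative to P9 (y axis) at P9 (0 by definition), P13 (by subtraction, 6 arrays) and P30 (3 arrays), with 95% intervals; for a gene with several probes, the one with the largest P13-N/P9-N is drawn, and days are not to scale. *Gnat1* and *Opn1mw* reach 2.63 and 2.74 by P13, *Mef2c* reaches 0.80, and *Egr1* returns from 1.63 towards 0 by P30.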

How the data were processed

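The deposited values are log2 ratios between both channels, normalized by the authors, with 1 column for each dye-swapped pair of hybridisations. The normalization, the background correction and the rule for blank values are not given in the sources used here. Direction was set per comparison as channel 2 over channel 1: 9 of 9 genes of P8-O/P8-N, 12 of 12 of P9-N/P30-N and 18 of 18 of P13-O/P13-N had the direction the study gives, and for P13-O/P9-N the order of channels was used. The 15 arrays entered 1 linear model, with a coefficient for each comparison, in limma 3.58.1 (R 4.3.3). The P8-O/P8-N and P12-O/P12-N arrays thus add to the spread behind each p and interval. Their replicates correlated at -0.20 to 0.21 and at 0.34 to 0.52. P13-N/P9-N, P30-N/P13-N and their difference were contrasts of it, tested with the moderated statistic and adjusted by the Benjamini-Hochberg method over all tested probes, those with at least 2 values in each comparison used. The number of arrays limits the precision. Probes were named through the platform's annotation with older symbols updated, and probes of a gene were averaged in lists. The fit was tested on simulated data with independent noise for each probe and array. Such data cannot show how shared pools or lens tissue affect p.

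The members and the gene lists were chosen with earlier results of these data known. Named were the 15 highest and 15 lowest called probes with 1 symbol and array values that did not overlap, up to 6 genes of each list, called ones first, any member of lists of 15 or fewer, and *Vegfa* and *Hif1a*. Some genes of the lists are not reported here. Other genes named were chosen after their values were seen. Promoters are from RefSeq. Plots were made in matplotlib 3.10.9 (Python 3.11.15).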

Additional observations from a re-analysis of the deposited data

How the results depend on the processing

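For P13-N/P9-N the 244 higher and 140 lower probes became 144 and 77 in a fit of the 6 arrays alone, 147 and 75 at an adjusted p under 0.01, 407 and 246 without the fold limit and 396 and 275 with the fold limit alone. Array weights with robust eBayes gave 356 and 275. Leaving out each array in turn gave 184 to 277 higher and 97 to 212 lower, the highest without replicate 3 of P13-O/P13-N. The 112 higher and 153 lower probes of P30-N/P13-N were more dependent on the setting: 35 and 46 at an adjusted p under 0.01, 350 and 419 with the fold limit alone, 409 and 462 with array weights, and 3 and 7 with arrays scaled to the same median absolute deviation, which shrinks the wider P9-N/P30-N arrays. Leaving out an array gave 42 to 147 higher and 61 to 182 lower, and 1 or both counts were more than 1.5 times lower without any of the P9-N/P30-N arrays, replicates 2 and 3 of P13-O/P9-N or replicates 1 and 2 of P13-O/P13-N. The difference between the steps had 0 calls in each direction; it had 17 and 3 after that scaling, 99 and 56 with array weights, 908 and 765 with the fold limit alone, and, leaving out an array, 0 to 2 higher and 0 lower (2 without replicate 3 of P13-O/P13-N, 1 without replicate 3 of P9-N/P30-N).

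Of the named genes 101 probes were followed. They kept their direction in P13-N/P9-N under all alternatives that gave them a value. There was none for 5 where a value on every array was asked for, or without replicate 1 or 3 of P13-O/P13-N. However, 23 lost the call in the fit of 6 arrays, and 5 to 20 lost it without 1 of the arrays. *Rp1l1*, *Sema3f*, *Dll3* and 1 probe each of *Cd68* and *Ccnd1* lost it in 5 of the 6 cases. *P4ha1*, *Cry2*, *Tuba1a*, *Prc1* and 1 probe of *Hk1* lost it in 4 of the 6. Arithmetic means of linear ratios gave values with no test. Replicate numbers were not taken to pair the arrays: deviations of same-numbered P13-O/P13-N and P13-O/P9-N arrays correlated at 0.21, -0.03 and 0.19, and replicate 3 of the first correlated more with replicate 2 of the second (0.25). With the replicate number as a block, 244 probes were higher and 145 lower in P13-N/P9-N, 135 and 169 in P30-N/P13-N, and 0 in the difference.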
